A study of Rattus norvegicus with 16 samples.

Results

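Chemokines are small secreted proteins that steer migrating cells, and chemokine receptors are the G protein-coupled receptors that read them. The genes described here were the array rows annotated with exactly 1 symbol of the form Ccl, Cxcl, Ccr or Cxcr plus a number, or with Cx3cl1, Cx3cr1, Xcl1 or a numbered Ackr symbol. There were 50 such genes, each with 1 row (probe set), among 27342 rows in all, of which 15097 named a single gene. They comprised 33 ligands (19 CC, 12 CXC, Cx3cl1 and Xcl1) and 17 receptors (8 CC, 7 CXC or CX3C, and the atypical receptors Ackr2 and Ackr3).

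The samples were hearts of 16 rats aged 2 days, with 1 Affymetrix Rat Gene 1.0 ST array per heart. There were 4 groups of 4 arrays: females and males of HHR, a strain whose hearts the labels call hypertrophic, and females and males of NHR, the strain with hearts labelled normal. No animal was treated and no transgene is named, so strain and sex are the only factors. The labels speak of ventricles in 1 place and of the whole heart in another, and litters are not given, so litter and strain cannot be told apart. Values are log2 expression, a difference is HHR minus NHR, and its error is the moderated standard error (SE) of a limma fit to all 16 arrays. Adjusted p-values are Benjamini-Hochberg values over all 27342 rows, with a threshold of 0.05.

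Chemokines are named for the spacing of their N-terminal cysteines, which gives the CC, CXC, CX3C and C families. Conventional receptors signal through inhibitory G proteins and draw cells up a gradient, whereas atypical receptors such as Ackr2 and Ackr3 mainly take ligand up and shape that gradient. In the heart, Cxcl12 and its receptor Cxcr4 take part in the growth of coronary vessels, and the axes of Ccl2 with Ccr2 and of Cx3cl1 with Cx3cr1 guide monocytes and tissue macrophages.

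The arrays carried similar signal, with medians between 7.19 and 7.28. All 10 measured cardiomyocyte markers had mean levels between 12.37 (Ryr2) and 14.23 (Actc1), so the heart label was borne out by its markers. The labels mark no batch. NHR female 3, NHR female 4 and NHR male 4 scored 14.4, 15.06 and 22.63 on the first principal component of the deviations from group means, against -16.88 to 7.48 in the other 13 arrays. Results are therefore also given without these 3 NHR arrays, an alternative chosen after seeing the data. A row was called dim where its mean over all 16 arrays lay under 6.205, the 95th percentile of the row means of 59 olfactory receptor genes. By that measure 20 of the 50 genes were dim, and 30 were not.

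Between the strains, 8 of the 50 genes (16%) passed the test, against 20.7% of all rows and 23.3% of rows naming a single gene, so the family was not called more often than the array as a whole. Ccl6, Ccl21 and Cx3cl1 were higher in HHR, against 9.64% of all rows called higher. Cxcr4, Ccr2, Cxcl12, Cxcl6 and Ccl5 were lower, against 11% of all rows called lower. The 3 that rose are all ligands, which make up 33 of the 50 genes, and 3 ligands fell. Of the ligands 18.2% passed and of the receptors 11.8%, both under the 20.7% of all rows. Of the 17 receptors, 2 fell and 0 rose by this test, and 3 of 17 passed at an unadjusted p under 0.05, against 11 of the 50 genes and 33.2% of all rows. The median difference was -0.06 over the 50 genes and -0.03 over all rows, and 32 of the 50 differences lay below 0, as did 16587 of the 27342. Among the 30 genes that were not dim 7 passed (23.3%), against 28% of such rows, and among the 20 dim genes 1 passed (5%), against 6.32% of dim rows. The plot of differences by receptor and ligand class shows that the 42 genes not called had 95% intervals lying between -0.48 and 0.41. An array signal can also change with a strain's sequence variants under the probes, and these cannot be told apart from a change of RNA level.

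**Figure D1:**
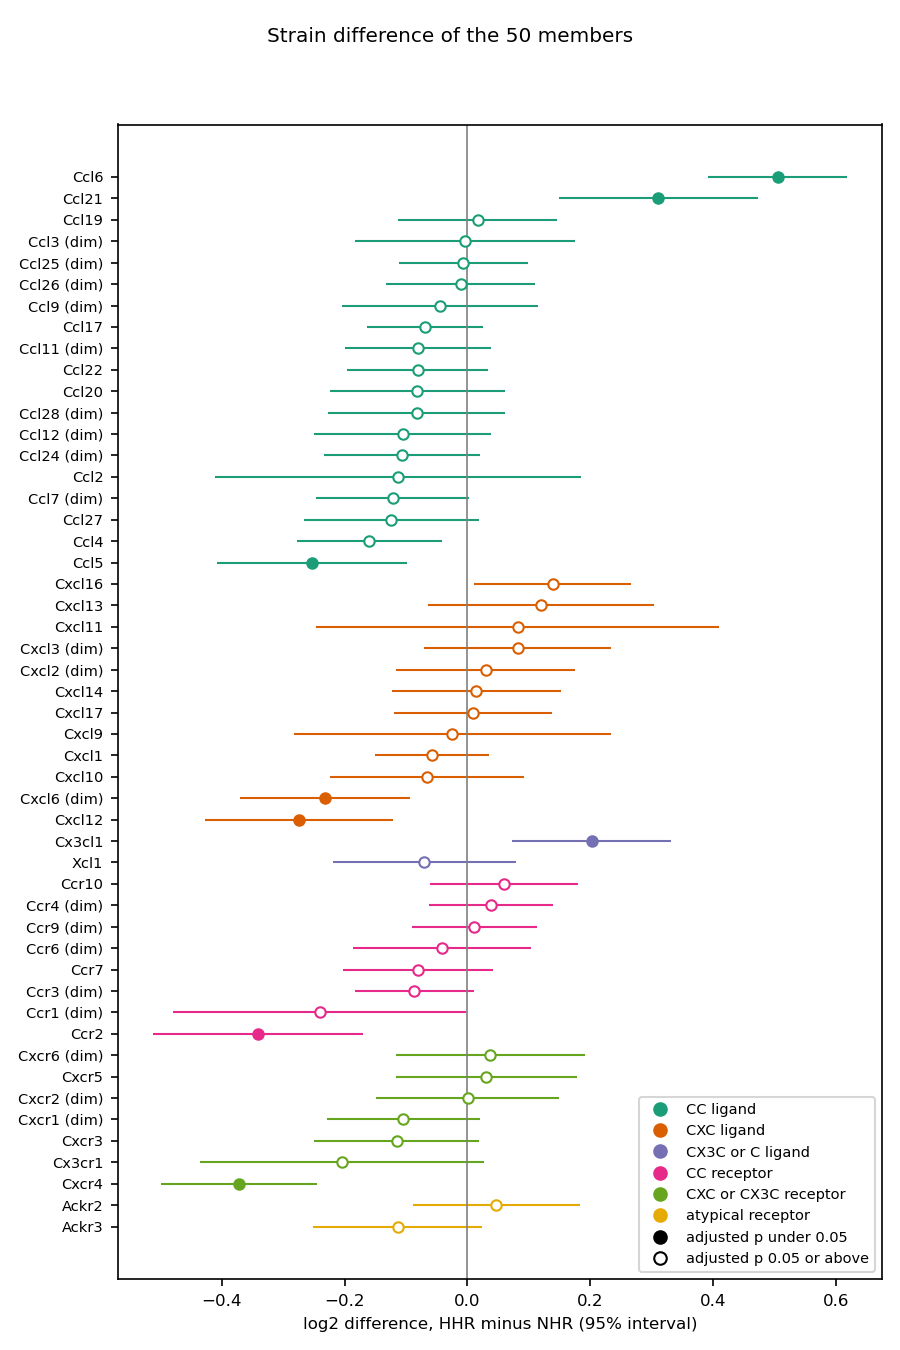
Log2 difference between HHR and NHR with its 95% interval for each of the 50 genes, coloured by class; filled points passed the test (adjusted p under 0.05) and dim rows are marked. Of the filled points, 3 lie above 0 (Ccl6, Ccl21 and Cx3cl1) and 5 below it.

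**Figure D2:**
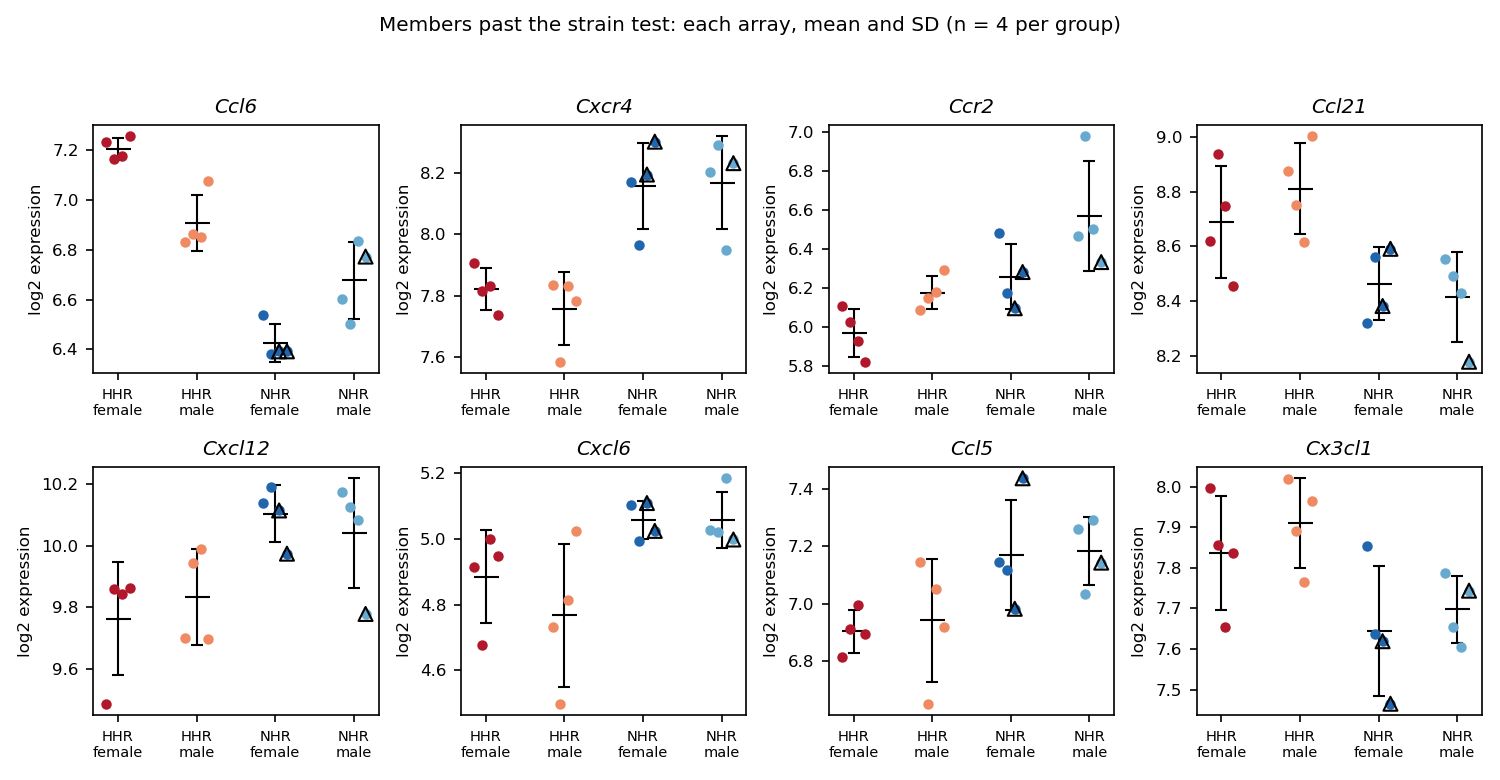
Log2 expression of the 8 genes past the strain test on each of the 16 arrays, with the mean and SD of each group of 4. Triangles mark the 3 NHR arrays left out in an alternative fit. Cxcr4 is the gene in which all 8 HHR arrays lie below all 8 NHR arrays, and Ccl6 separates the strains by more in females than in males.

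Ccl6 encodes a CC ligand made by macrophages and other myeloid cells, and it had the largest difference of the 50 genes. HHR females measured 7.23, 7.16, 7.18 and 7.26, and HHR males 6.83, 6.87, 6.85 and 7.08. NHR females measured 6.54, 6.38, 6.39 and 6.39, and NHR males 6.60, 6.50, 6.84 and 6.77. The HHR females lay above all the other arrays, and the highest NHR male (6.84) lay just above the lowest HHR male (6.83). The HHR mean was 7.06 ± 0.18 (SD, n = 8) and the NHR mean 6.55 ± 0.18, so HHR was 1.42-fold higher (log2 difference 0.51, SE 0.05, limma adjusted p = 9.7e-06), with 7 of 8 HHR arrays above the highest NHR array. The rise was 0.78 (SE 0.08, adjusted p = 1.0e-05) in females. In males the difference was 0.23 (SE 0.08, adjusted p = 0.0994), which did not pass, but it passed after cyclic loess normalization (0.26, adjusted p = 0.0452). The difference between these effects, -0.55 (SE 0.11), had an unadjusted p of 7.7e-05 and an adjusted p of 0.527, so a sex dependence was not called. Leaving out the 3 NHR arrays gave 0.50 (adjusted p = 1.7e-04).

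Ccl6 lies on chromosome 10 of the RefSeq assembly GRCr8 in a run of 5 CC ligand genes, in the order Ccl5, Ccl9, Ccl6, Ccl3, Ccl4. Their strain differences were -0.25, -0.04, 0.51, -0.0044 and -0.16, so the neighbours differed in size and sign. Ccl5, which attracts T cells and monocytes, was the member of the run that fell. Its values were 6.813, 6.913, 6.996 and 6.895 in HHR females and 7.15, 6.65, 7.05 and 6.92 in HHR males. NHR females gave 7.14, 7.12, 6.98 and 7.44, and NHR males 7.26, 7.03, 7.29 and 7.14. The strains overlapped, with 5 of 8 HHR arrays under all of NHR (difference -0.25, SE 0.07, adjusted p = 0.021). Ccl4, another ligand for T cells and monocytes, missed the threshold at -0.16 (SE 0.06, adjusted p = 0.0511, 5 of 8 HHR arrays under all of NHR). It passed in 9 of 26 alternatives, among them without HHR female 3 (-0.18, adjusted p = 0.0442), HHR male 1 (-0.19, 0.0235), NHR female 3 (-0.18, 0.0414) or NHR male 3 (-0.18, 0.0391), and without the 3 NHR arrays (-0.19, adjusted p = 0.0469). Ccl3 and Ccl9 were dim, with means of 6.20 and 5.73.

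Cxcl6, a neutrophil-attracting ligand, was the dim gene among the 8, with a mean of 4.94. HHR females measured 4.916, 4.678, 4.998 and 4.947, and HHR males 4.73, 4.50, 4.82 and 5.02. NHR arrays kept to a narrow range, with 5.10, 4.99, 5.11 and 5.02 in females and 5.027, 5.020, 5.185 and 4.998 in males. Of the 8 HHR arrays 6 lay below the lowest NHR array, and the difference was -0.23 (SE 0.07, adjusted p = 0.0189). It did not pass without the 3 NHR arrays (-0.24, adjusted p = 0.0625). The related neutrophil ligands Cxcl1, Cxcl2 and Cxcl3 did not pass, at -0.06, 0.03 and 0.08, and Cxcl2 and Cxcl3 were dim. Their receptors Cxcr1 and Cxcr2 were dim too, at means of 5.66 and 5.34, and differed by -0.10 (adjusted p = 0.231) and 1.7e-04 (adjusted p = 0.998).

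The promoters of Ccl6 and Cxcl6 are shown because these ligands changed in opposite directions. Each sequence runs from 250 bases before to 50 after the gene's start and is taken from RefSeq (GRCr8), which was matched for 39 of the 50 genes. They are Ccl6 at chr10:68883317-68883616 and Cxcl6 at chr14:17596368-17596667, both on the minus strand and written 5′ to 3′. Capitals mark matches on either strand to the NF-kB consensus (the binding sequence of a factor that drives inflammatory genes), the TATA box of many core promoters, which was searched as TATAAA, an interferon response type motif (GAAANNGAA) or the core of the hypoxia response motif (ACGTG).
Ccl6: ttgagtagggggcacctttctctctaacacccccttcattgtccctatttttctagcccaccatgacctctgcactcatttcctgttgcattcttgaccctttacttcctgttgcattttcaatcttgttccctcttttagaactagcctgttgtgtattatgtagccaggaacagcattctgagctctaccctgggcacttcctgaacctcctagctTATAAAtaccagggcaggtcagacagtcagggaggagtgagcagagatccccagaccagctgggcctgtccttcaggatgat
Cxcl6: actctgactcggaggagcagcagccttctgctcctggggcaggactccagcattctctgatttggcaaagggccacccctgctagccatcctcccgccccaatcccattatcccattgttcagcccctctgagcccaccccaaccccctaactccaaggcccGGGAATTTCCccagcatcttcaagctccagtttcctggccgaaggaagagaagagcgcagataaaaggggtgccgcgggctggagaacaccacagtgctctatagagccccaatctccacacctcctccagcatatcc
Ccl6 holds a TATA box from position -32, counted back from the start, and no other of the 4 motifs. Cxcl6 holds an NF-kB consensus from -88. That consensus was found in 8 of the 39 promoters (20.5%) and in 5.02% of 33469 RefSeq promoters of the same length. The 8 belong to Ccl7, Ccl9, Ccl20, Ccr3, Cxcl1, Cxcl2, Cxcl6 and Cxcl10, so Cxcl6 is the 1 among them that passed the strain test. TATAAA was in 11 of 39 (28.2%) against 14.2%, GAAANNGAA in 3 (7.69%) against 9.71%, and ACGTG in 6 (15.4%) against 19.3%. A match is a stretch of letters, and binding was not measured.

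Cxcl12 (also called stromal cell-derived factor) and its signalling receptor Cxcr4 were both lower in HHR. Cxcr4 measured 7.91, 7.82, 7.83 and 7.74 in HHR females and 7.84, 7.59, 7.83 and 7.78 in HHR males. It measured 8.17, 7.97, 8.19 and 8.30 in NHR females and 8.20, 8.29, 7.95 and 8.23 in NHR males. The strains did not overlap, which held for 1 of the 50 genes and for 4.15% of all rows (2.2% with HHR below and 1.95% with HHR above). The HHR mean was 7.79 ± 0.10 (SD, n = 8) and the NHR mean 8.16 ± 0.13, so HHR was 1.29-fold lower (difference -0.37, SE 0.06, limma adjusted p = 4.3e-04). With the 3 NHR arrays left out, it was -0.32 (adjusted p = 0.00613).

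Cxcl12 measured 9.49, 9.86, 9.84 and 9.86 in HHR females and 9.70, 9.94, 9.99 and 9.70 in HHR males. In NHR it measured 10.14, 10.19, 10.11 and 9.97 in females and 10.17, 10.12, 10.08 and 9.78 in males. NHR male 4 (9.78) and, less so, NHR female 4 (9.97) reached into the HHR range, and 3 of 8 HHR arrays lay below the lowest NHR array. The difference was -0.27 (SE 0.07, adjusted p = 0.0123). With the 3 set-apart arrays left out it was -0.35 (0.00613), with 8 of 8 HHR arrays below the other 5. Those left out include NHR male 4 and NHR female 4, the lowest NHR arrays in this gene. Leaving them out itself lowers the difference and removes the overlap, so these values are no added support for a strain difference. Ackr3, which takes up Cxcl12, had a difference of -0.11 (SE 0.07, adjusted p = 0.24, 95% interval -0.25 to 0.02) and did not pass. HHR females were the most uneven group in Ackr3, at 9.69, 10.15, 9.99 and 9.69. Ackr2, which takes up inflammatory CC ligands, differed by 0.05 (adjusted p = 0.655).

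The promoters of this ligand and receptor are shown because the pair fell together. They lie at chr4:152060531-152060830 on the plus strand (Cxcl12) and chr13:42634239-42634538 on the minus strand (Cxcr4) of GRCr8, written 5′ to 3′ with the same use of capitals.
Cxcl12: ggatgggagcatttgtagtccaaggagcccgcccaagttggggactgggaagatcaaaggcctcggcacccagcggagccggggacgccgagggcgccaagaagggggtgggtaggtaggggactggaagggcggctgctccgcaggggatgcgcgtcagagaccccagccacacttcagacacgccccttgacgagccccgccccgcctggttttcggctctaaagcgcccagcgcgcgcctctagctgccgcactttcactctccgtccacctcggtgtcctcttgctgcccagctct
Cxcr4: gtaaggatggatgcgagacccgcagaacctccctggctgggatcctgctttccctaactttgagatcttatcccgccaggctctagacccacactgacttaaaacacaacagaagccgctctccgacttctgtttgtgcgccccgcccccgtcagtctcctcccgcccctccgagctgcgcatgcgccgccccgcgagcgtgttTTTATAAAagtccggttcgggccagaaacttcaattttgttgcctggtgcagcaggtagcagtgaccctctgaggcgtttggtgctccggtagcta
Cxcr4 holds overlapping TATA box matches from positions -46 (opposite strand) and -44 (given strand), and Cxcl12 holds none of the 4 motifs in this window.

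Cxcr4 and Cxcl12 are also expressed in blood vessel endothelium, whose markers were read as a list. Of 9 measured endothelial markers 6 were lower in HHR and 1 higher (median -0.16). Among rows naming a single gene 11.3% were lower and 12% higher, and 28% of all rows that were not dim passed. Cldn5, a tight junction gene, fell by 0.41 (SE 0.05, adjusted p = 6.8e-05) and the receptor gene Tie1 by 0.22 (SE 0.04, adjusted p = 0.00138), while Esam, a junction gene, was higher (0.22). The mean level of the 9 markers ranged from 10.26 to 10.38 in HHR females and 10.34 to 10.42 in HHR males, against 10.47 to 10.56 in NHR females and 10.36 to 10.52 in NHR males, and 0 of them were dim. With the 3 set-apart arrays left out 5 were lower and 1 higher. The call of Aplnr was lost without any of 3 single arrays and that of Flt1 without either of 2. That of Cdh5 was lost after median centring (-0.13, adjusted p = 0.0606). Emcn was called higher without NHR female 3 (0.14, adjusted p = 0.0347) and with array weights (0.14, 0.0378). Their part in the falls of Cxcr4 and Cxcl12 was not tested. In tissue RNA, fewer cells of a type and less RNA per cell cannot be told apart.

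Ccl21, made by lymphatic endothelium and lymphoid tissue to draw in cells bearing Ccr7, was higher in HHR. It measured 8.62, 8.94, 8.75 and 8.45 in HHR females and 8.874, 8.750, 8.616 and 9.002 in HHR males. NHR females gave 8.32, 8.56, 8.38 and 8.59, and NHR males 8.56, 8.49, 8.43 and 8.18. HHR female 4 (8.45) was the 1 HHR array within the NHR range. The difference was 0.31 (SE 0.08, adjusted p = 0.00825), a 1.24-fold rise, and 0.28 (0.0335) with the 3 set-apart arrays left out. Ccl19 and Ccl27, which adjoin Ccl21 on chromosome 5, differed by 0.02 and -0.12, and neither passed. Ccr7, the receptor of Ccl19 and Ccl21, differed by -0.08 (SE 0.06, adjusted p = 0.357, 95% interval -0.20 to 0.04).

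Of 7 lymphatic endothelial markers 2 were higher and 0 lower, with a median of 0.11. The shares among rows naming a single gene were 12% higher and 11.3% lower, and 28% of all rows that were not dim passed. Pdpn, a surface glycoprotein also found in epicardium, rose by 0.39 (SE 0.05, adjusted p = 5.2e-05) and Lyve1, a hyaluronan receptor also found on resident macrophages, by 0.41 (SE 0.07, adjusted p = 8.4e-04), each with 8 of 8 HHR arrays above every NHR array. Prox1, the transcription factor of lymphatic identity that heart muscle also expresses, differed by 0.14 (adjusted p = 0.292), and Flt4, the lymphatic growth factor receptor, by 0.04 (adjusted p = 0.714). The mean level of the list was 9.16 to 9.36 in HHR females and 9.12 to 9.30 in HHR males, and 8.986 to 9.105 in NHR females and 8.996 to 9.138 in NHR males, with 0 of the 7 dim. Their part in the Ccl21 difference was not tested.

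Cx3cl1 (fractalkine), a membrane-bound ligand that endothelial cells and other cells shed, was higher in HHR. It measured 8.00, 7.86, 7.65 and 7.84 in HHR females and 8.02, 7.89, 7.76 and 7.97 in HHR males, against 7.86, 7.64, 7.62 and 7.46 in NHR females and 7.79, 7.65, 7.61 and 7.74 in NHR males. The ranges overlapped, with 5 of 8 HHR arrays above the highest NHR array (difference 0.20, SE 0.06, adjusted p = 0.0265). The call was lost without the 3 NHR arrays (0.16, adjusted p = 0.131), with array weights (0.17, 0.0619), and without HHR female 1 (0.18, 0.0602), HHR male 1 (0.18, 0.0565), NHR female 4 (0.17, 0.0573) or NHR male 3 (0.19, 0.0566). Its neighbours on chromosome 19, Ccl17 and Ccl22, which attract T cells, differed by -0.07 and -0.08 and did not pass.

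The receptor Cx3cr1, carried by monocytes and resident macrophages, depended on the 3 NHR arrays. It measured 7.13, 7.20, 7.33 and 7.12 in HHR females and 7.17, 7.41, 7.15 and 7.23 in HHR males. NHR females gave 7.66, 7.55, 7.07 and 7.15, and NHR males 7.65, 7.86, 7.48 and 6.97. The 3 lowest NHR values are those of NHR female 3, NHR female 4 and NHR male 4, and the other 5 NHR arrays lie above every HHR array. With all arrays the difference was -0.20 (SE 0.11, adjusted p = 0.205) and did not pass. It passed without the 3 NHR arrays (-0.42, SE 0.07, adjusted p = 0.00135) and without NHR male 4 alone (-0.29, adjusted p = 0.0275). Leaving out the lowest NHR values itself raises the NHR mean and narrows the NHR spread. These p-values are therefore no support for a strain difference.

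Ccr2, the receptor that brings monocytes out of blood and marrow towards Ccl2, was lower in HHR and its mean of 6.24 lay just above the dim level. HHR females measured 6.10, 6.02, 5.92 and 5.82, and HHR males 6.08, 6.15, 6.18 and 6.29. NHR females measured 6.48, 6.17, 6.09 and 6.28, and NHR males 6.46, 6.98, 6.50 and 6.33. The ranges overlapped, with 4 of 8 HHR arrays under all of NHR, and NHR male 2 (6.98) was the highest. The difference was -0.34 (SE 0.08, adjusted p = 0.00652), and -0.42 (0.00598) with the 3 set-apart arrays left out. Those arrays lay at 6.09 to 6.33, against 6.17 to 6.98 in the other NHR arrays. Leaving them out itself lowers the difference, so the -0.42 is no added support. Ccl2, the main ligand of Ccr2, averaged 9.94 ± 0.19 (SD, n = 8) over the HHR arrays and 10.05 ± 0.40 over the NHR arrays. The Ccl2 difference of -0.11 (SE 0.14, adjusted p = 0.621, 95% interval -0.41 to 0.18) did not pass. It was -0.29 (0.118) with the 3 set-apart arrays left out. Ccl7 (-0.12) and Ccl12 (-0.11), which also bind Ccr2, and Ccl11 (-0.08), a ligand of the eosinophil receptor Ccr3, adjoin Ccl2 on chromosome 10. All 3 were dim and none passed.

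Of 14 macrophage and monocyte markers 2 were higher in HHR, Lyve1 and the complement gene C1qb (0.38, adjusted p = 0.00484), and 0 were lower, with a median of 4.0e-04. Rows naming a single gene were higher in 12% and lower in 11.3%, and 28% of all rows that were not dim passed. The macrophage receptor gene Csf1r differed by 0.07 (adjusted p = 0.553), and Cd68, a macrophage lysosomal protein, by 1.0e-03 (adjusted p = 0.994). The mean level of the list was 7.47 to 7.63 in HHR females, 7.41 to 7.79 in HHR males, 7.43 to 7.56 in NHR females and 7.45 to 7.69 in NHR males, with 1 of 14 dim. The ranges of the 4 groups overlapped for the list. Its part in the Ccl6, Ccr2 and Ccl5 differences was not tested. Ptprc, carried by all leukocytes, was the 1 of 14 lymphocyte list markers that changed (-0.27, adjusted p = 6.0e-04), and 8 of these 14 were dim.

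**Figure D3:**
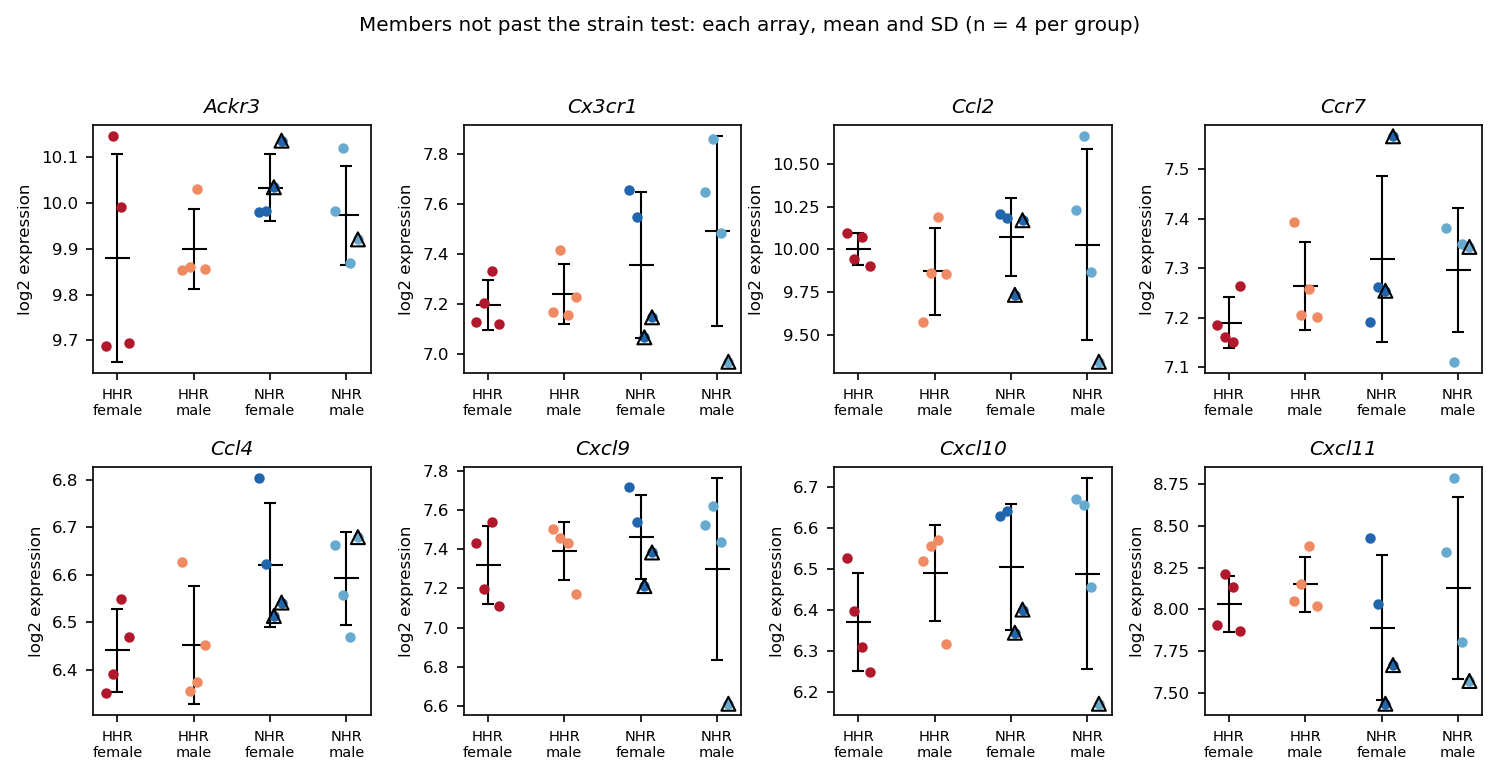
Log2 expression on each of the 16 arrays for 8 genes that did not pass the strain test, with the mean and SD of each group of 4. Triangles mark the 3 NHR arrays left out in an alternative fit. In Cx3cr1, Cxcl9, Cxcl10 and Cxcl11 the marked arrays are the lowest 3 of the 8 NHR arrays.

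The other genes with larger differences that did not pass were Ccr1, Cxcl16 and Ccl27. Ccr1, a receptor of Ccl3 and Ccl5 on myeloid cells, was dim (mean 4.93) and differed by -0.24 (SE 0.11, adjusted p = 0.147), and by -0.08 (0.68) with the 3 set-apart arrays left out. Cxcl16, a membrane-bound ligand and lipoprotein scavenger, differed by 0.14 (SE 0.06, adjusted p = 0.117), with 6 of 8 HHR arrays above the highest NHR array. It passed without HHR female 4 (0.17, adjusted p = 0.0478), the lowest HHR array in this gene. With the 3 set-apart arrays left out, which hold its lowest NHR values, the difference was 0.06 (adjusted p = 0.536). The Cxcl16 receptor Cxcr6 was dim (mean 6.07, difference 0.04). Ccl27, a ligand of skin-homing T cells, differed by -0.12 (SE 0.07, adjusted p = 0.215), and its receptor Ccr10 by 0.06 (adjusted p = 0.509).

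The plot of differences against signal shows that the rest of the family lay near 0. Ligands and receptors of lymphoid traffic gave small values, with Cxcl13 at 0.12 and its receptor Cxcr5 at 0.03, Ccl20 at -0.08 and its receptor Ccr6 (dim) at -0.04, and Ccl25 and its thymic receptor Ccr9 (both dim) at -0.0068 and 0.01. Cxcl14, a ligand of epithelium, differed by 0.01 and Cxcl17, a mucosal ligand, by 0.0093. Xcl1, the C ligand of dendritic cell recruitment, differed by -0.07. The dim genes Ccl24 (-0.11), Ccl26 (-0.01), Ccl28 (-0.08), Ccr3 (-0.09) and Ccr4 (0.04) did not pass either, except that Ccl24 passed without NHR male 2 (-0.16, adjusted p = 0.0184).

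**Figure D4:**
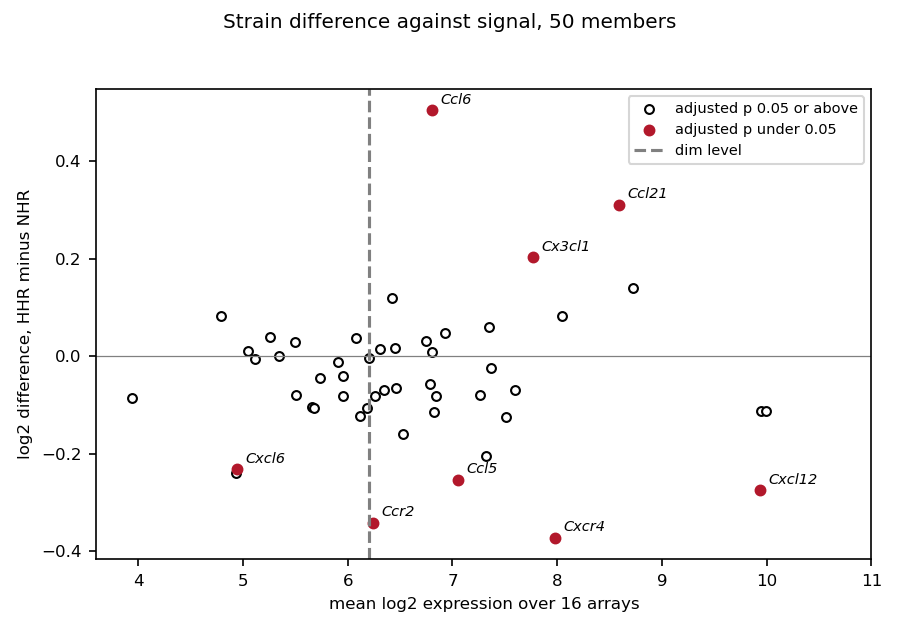
Log2 difference between HHR and NHR against the mean log2 expression over 16 arrays for the 50 genes; filled points passed the strain test and the dashed line is the dim level of 6.205. Cxcl6 is the filled point left of the line, and Ccr2 lies just right of it.

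Within each sex, fewer genes passed. In females 3 of 50 (6%) passed, against 12% of all rows: Ccl6 higher, Cxcl12 (-0.34, SE 0.10, adjusted p = 0.0376) and Cxcr4 (-0.34, SE 0.08, adjusted p = 0.0164) lower. In males 2 of 50 passed, against 4.02% of all rows: Ccl21 higher (0.40, SE 0.11, adjusted p = 0.0492) and Cxcr4 lower (-0.41, SE 0.08, adjusted p = 0.0117). The call of Cxcl12 in females was lost without HHR female 1 (-0.25, adjusted p = 0.133), HHR female 3 (-0.37, 0.0548), NHR female 1 (-0.33, 0.065), NHR female 2 (-0.31, 0.0827) or NHR female 3 (-0.34, 0.0792), after median centring (-0.31, 0.0687), and without the 3 NHR arrays (-0.40, 0.0544). That of Cxcr4 in females was lost without HHR female 4 (-0.31, adjusted p = 0.0509), NHR female 4 (-0.29, 0.0626) or the 3 NHR arrays (-0.25, 0.192). That of Ccl21 in males was lost without any of 10 single arrays, with adjusted p = 0.0599 and 0.0644 without HHR female 1 or 3, 0.123, 0.0939 and 0.128 without HHR male 1, 2 or 4, 0.0559 and 0.0516 without NHR female 2 or 3, and 0.0554, 0.111 and 0.142 without NHR male 1, 3 or 4. It was also lost with array weights (adjusted p = 0.0613) and without the 3 NHR arrays (0.117).

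Beside Ccl6, 4 genes passed within a sex only under alternatives. With the 3 set-apart arrays left out, Cx3cr1 was lower in females (-0.41, adjusted p = 0.0392) and in males (-0.42, 0.0172), and Ccr2 in males (-0.47, 0.0326). For Cx3cr1 the arrays left out hold the lowest NHR values, so its p-values here are no support for a strain difference. For Ccr2 NHR male 4 holds the lowest value of the NHR males. The Ccr2 p-values in males without that array are therefore no added support either. Ccr2 also passed in males without NHR male 4 (-0.47, 0.0396), with array weights (-0.37, 0.0284) and among single-gene rows (-0.39, 0.0497), and in females without NHR male 2 (-0.29, 0.0322) and with array weights (-0.30, 0.0471). Cxcl6 passed in males without HHR male 4 (-0.38, adjusted p = 0.0313), with array weights (-0.35, 0.0461) and with the replicate block (-0.29, 0.0402). Cx3cl1 passed in females without NHR female 1 (0.26, 0.0498).

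The sign of the difference was the same in females and males for 36 of the 50 genes (72%), which compares with 71.4% of all rows. All 8 genes past the strain test kept 1 sign in both sexes. That test averages the sexes and so favours such genes, so this is no separate support. Of these 36, 25 were lower and 11 higher in HHR. The limma interaction test called 0 of the 50 genes, as it called 0% of all rows. At an unadjusted p under 0.05 it named Ccl6 alone, 1 of 50, against 5.08% of all rows. Males and females of the same strain differed in 0 of the 50 by the limma test, against 0.011% of all rows. At an unadjusted p under 0.05 Ccr2 (0.26), Cxcr6 (0.17) and Ccr4 (0.15) were higher in males, 3 of 50 against 6.4% of all rows, with adjusted p of 0.731, 0.761 and 0.731.

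**Figure D5:**
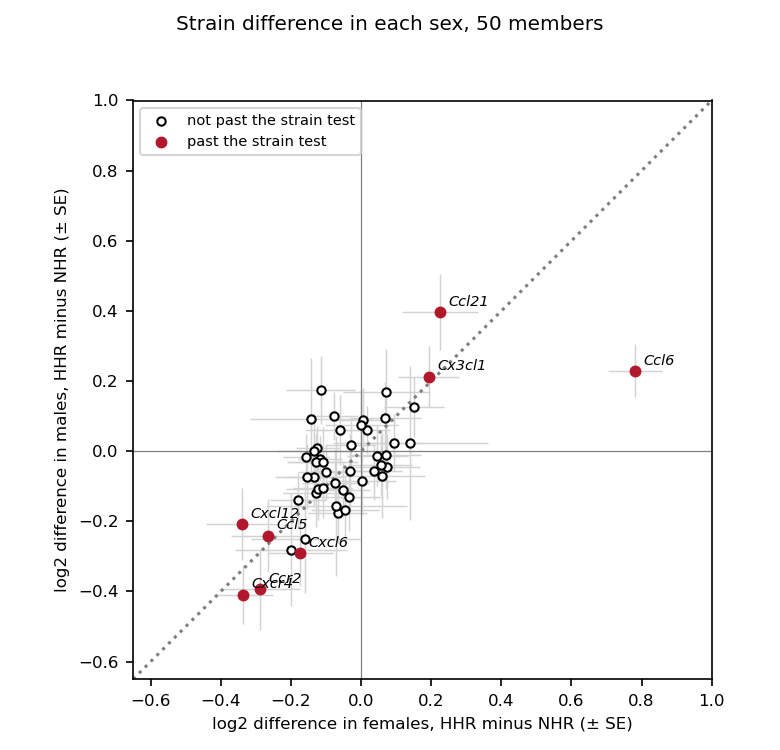
Log2 difference between HHR and NHR in males against that in females, with the SE of each, for the 50 genes; filled points passed the strain test over both sexes and the dotted line marks equal differences. Ccl6 lies far below the line (0.78 in females, 0.23 in males), while Cxcr4 lies near it (-0.34 and -0.41).

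Genes around the family were read from lists. For comparison, 12% of rows naming a single gene were higher and 11.3% lower, and 28% of all rows that were not dim passed. Among 11 measured relatives outside the symbol rule, 2 rose and 3 fell (median 0.03). The platelet chemokine gene Pf4 fell by 0.61 (SE 0.12, adjusted p = 0.0023, 7 of 8 HHR arrays under all of NHR), and the other platelet chemokine gene, Ppbp, rose by 0.47 (SE 0.12, adjusted p = 0.00994, 2 of 8 above the highest). None of 3 platelet markers passed, at -0.08 (Gp5), -0.13 (Gp1ba) and -0.03 (Gp9). Mif, a cytokine that can bind Cxcr4 and Cxcr2, fell by 0.23 (SE 0.06, adjusted p = 0.00683), and Cd74, its receptor and the invariant chain of class II antigen presentation, by 0.32 (SE 0.09, adjusted p = 0.016). Rarres2 (chemerin), an attractant outside the chemokine families, was higher (0.17, adjusted p = 0.0318), a call lost without any of 8 single arrays and with the 3 set-apart arrays left out (0.16, adjusted p = 0.107).

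Of 25 signalling genes below the receptors 4 rose and 3 fell (median -0.03), against 12% and 11.3% of rows naming a single gene. Of all rows that were not dim, 28% passed. Gnai1 and Gnai3, inhibitory G protein alpha subunits, rose by 0.38 (SE 0.08, adjusted p = 0.00227) and 0.21 (adjusted p = 0.00585), and Rgs2, which turns G protein signals off, rose by 0.43 (SE 0.07, adjusted p = 3.2e-04). Rac1, a GTPase of cell movement, was also higher (0.16, adjusted p = 0.0366). Gnb2, a beta subunit (-0.15), Prex1, an activator of Rac (-0.17), and Rgs16 (-0.26, adjusted p = 0.0441) were lower. The call of Rac1 was lost without any of 11 single arrays and after quantile normalization (0.09, 0.242) or cyclic loess (0.11, 0.112) and with array weights (0.12, 0.0673), and that of Rgs16 without any of 12 single arrays and under all 3 normalizations. With the 3 set-apart arrays left out, 2 were higher and 2 lower, since Gnai3 (0.16, adjusted p = 0.0552), Rac1 (0.07, 0.301) and Prex1 (-0.15, 0.0642) lost their calls.

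Of 18 genes of heparan sulphate, which holds chemokines on cell surfaces, and of chemokine-cutting proteases, 6 rose and 1 fell (median 0.09). Rows naming a single gene rose in 12% and fell in 11.3%, and 28% of all rows that were not dim passed. Sulf1, which strips sulphate from heparan sulphate, fell by 0.53 (SE 0.08, adjusted p = 2.4e-04, 8 of 8 HHR arrays below every NHR array). Gpc3, a heparan sulphate-bearing glypican, rose by 0.32 (SE 0.06, adjusted p = 0.00118, 8 of 8 above). The heparanase Hpse (0.30), the heparan sulphate enzymes Hs6st1 (0.23) and Ndst1 (0.21), the syndecan Sdc3 (0.21) and the protease Mmp2 (0.19) were higher. With the 3 set-apart arrays left out, Hs6st1 (adjusted p = 0.0814), Ndst1 (0.128) and Sdc3 (0.105) did not pass and the syndecan Sdc4 did (0.18, 0.0189), and Mmp2 did not pass after quantile normalization (0.14, 0.118) or cyclic loess (0.16, 0.0635). Fibroblast markers were higher in 4 of 10 and lower in 0 (median 0.14), with list means of 10.68 to 10.99 and 10.79 to 11.002 in HHR females and males against 10.74 to 10.80 and 10.49 to 10.81 in NHR, and 0 of 10 dim. The 10.49 was NHR male 4, 1 of the 3 set-apart arrays, and the other NHR males lay at 10.76 to 10.81. With the 3 set-apart arrays left out 3 fibroblast markers were higher. The call of Pdgfra was lost there and without any of 9 single arrays, while Dcn was called higher without either of 2. The part of the fibroblast markers in the differences of the 18 genes was not tested.

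Of 25 genes of pathways that induce chemokine transcription 0 rose and 3 fell (median -0.0016), against 12% and 11.3% of rows naming a single gene. Ifnar1, a receptor subunit for type I interferon, fell by 0.30 (SE 0.05, adjusted p = 3.5e-04, 8 of 8 HHR arrays below every NHR array). The interferon regulators Irf3 and Irf7 fell by 0.30 (SE 0.06, adjusted p = 0.00183) and 0.52 (SE 0.11, adjusted p = 0.00316). Without HHR male 4 or without NHR male 2, 5 of the 25 passed. Nfkbia was called lower without any of 4 single arrays, these 2 among them. It was also called with the filter on dim rows (-0.42, adjusted p = 0.0433), among single-gene rows and with the replicate block. Stat3 was called lower without HHR male 4 (-0.14, 0.0386), with array weights, and after quantile normalization or cyclic loess. Il1b was called lower without NHR male 2 (-0.17, 0.0345). The interferon-induced ligands of Cxcr3, which draw activated T cells, did not pass: Cxcl9 differed by -0.03 (adjusted p = 0.915), Cxcl10 by -0.07 (adjusted p = 0.581) and Cxcl11 by 0.08 (adjusted p = 0.759), and Cxcr3 itself by -0.12 (adjusted p = 0.221).

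Among the remaining marker lists, 3 of 7 epicardial markers were higher and 0 lower, 2 of 8 mural cell markers higher and 1 lower, and 2 of 6 erythroid markers higher and 2 lower. These counts stand against 12% higher and 11.3% lower among rows naming a single gene, and 28% of all rows that were not dim passed. With the 3 set-apart arrays left out the epicardial count was 2 higher and the erythroid count 1 higher and 2 lower. The mural count was 1 higher and 0 lower with the 3 set-apart arrays left out, and without NHR female 1 5 of the 8 passed. Of 13 neutrophil and mast cell markers 0 were higher and 1 lower, Csf3r, a neutrophil growth factor receptor (-0.15, adjusted p = 0.0277), and 7 were dim. The Csf3r call was lost with the 3 set-apart arrays left out (-0.13, adjusted p = 0.123), without any of 6 single arrays, and under all 3 normalizations. Of 7 thymus markers 1 was higher, Cd1d1, which presents lipid antigens in many tissues (0.96, adjusted p = 8.4e-09), 0 were lower and 3 were dim, Rag1 and Dntt among them. Of the 10 cardiomyocyte markers 6 were lower and 0 higher, and without the 3 NHR arrays 3 were lower.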

How the data were processed

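The deposited values are log2 expression per probe set, made by the authors with RMA (background correction, normalization between arrays and summary of probes) per the submitters' processing notes; limma is named there too. Versions, filters and the genome build are not given in the sources used here. Genes were named from the platform annotation, and all 50 matched RefSeq (GRCr8) by gene ID. Members and lists were chosen with earlier results of these data known.

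Group means were fitted to all 27342 rows and 16 arrays with limma 3.58.1 in R 4.3.3 (empirical Bayes, Benjamini-Hochberg, threshold 0.05), after the code was tested on simulated data. Contrasts were strain, strain within each sex, their difference, and sex. p-values reflect the spread between animals. The number of arrays, 4 per group, limits the precision.

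Named genes were those past the strain test, the pairs Cxcl12 with Cxcr4 and Ackr3, Cx3cl1 with Cx3cr1, Ccl2 with Ccr2 and Ccl21 with Ccr7, the 6 largest differences not past it, genes past another contrast, and up to 2 per list; other genes were chosen after their values were seen. Lists took each gene's brightest row. Alternatives were a filter on dim rows (4 or more arrays above 6.57, the 40th percentile; 24 of the 50 genes passed), single-gene rows, 3 normalizations, trended and robust moderation, array weights, a replicate block, leaving out arrays, and stricter thresholds.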

Additional observations from a re-analysis of the deposited data

Results flagged for a closer look

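In 7 of 68 groups of 4 arrays (17 named genes in 4 groups), 1 array stood apart from the other 3 by Dixon's criterion (gap over range above 0.829), which chance alone gives in about 1 of 20 groups. Ccl6 measured 7.08 in HHR male 4, above the other HHR males at 6.83 to 6.87, and 6.54 in NHR female 1, above the other NHR females at 6.38 to 6.39. Cxcl12 measured 9.49 in HHR female 1, below the others at 9.84 to 9.86. Its strain call held without that array. Cxcl6 measured 5.18 in NHR male 3, above the others at 4.998 to 5.027. Ackr3 measured 10.03 in HHR male 3, above 9.85 to 9.86. Ccl2 measured 9.73 in NHR female 3, below 10.17 to 10.21, and Ccr7 measured 7.11 in NHR male 2, below 7.34 to 7.38.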

How the results depend on the processing

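Of the 8 strain calls, 6 (Ccl6, Cxcr4, Ccr2, Ccl21, Cxcl12 and Ccl5) held at an adjusted p of 0.05 under every other normalization, filter, model or set of arrays that gave a value; Cxcl6 and Cx3cl1 lost theirs as described above. At stricter thresholds fewer held: Ccl6, Cxcr4, Ccr2 and Ccl21 passed at 0.01, and these 4 with Cxcl12 passed with a minimum of 1.2-fold. The filter on dim rows left out Ccr2 and Cxcl6, so it gave them no value. None of the 17 named genes changed sign under any alternative run. The count of 8 became 4 at an adjusted p under 0.01 (against 10.6% of all rows) and 5 with a minimum of 1.2-fold (against 9.08%). It lay between 7 and 9 when single arrays were left out, against 17% to 23.4% of all rows. At 0.01 the count was 1 in females and 0 in males. Without single arrays it lay between 2 and 4 in females and between 1 and 2 in males, and stayed at 0 for the interaction and for sex. Without the 3 NHR arrays 8 genes passed (2 higher, 6 lower), 6 of them shared with the 8 above, against 14.6% of all rows. The same 8 genes passed under each of the 3 normalizations (quantile, median, cyclic loess), 3 higher and 5 lower. The shares of all rows were 19.7%, 19.1% and 19.9%. With array weights the 8 that passed were 2 higher and 6 lower, against 23.4% of all rows.

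Same-numbered arrays did not deviate together throughout: 11 of 24 correlations exceeded 0.1, from -0.108 to 0.367, so the numbers were not taken as pairs. With the replicate block 9 genes passed for strain (against 22.5% of all rows), Ccl4 being the addition, 3 in females and 3 in males. Each gene had a single row, so averaging rows changed nothing. By the 40th percentile 28 genes were dim. Background signal was not used here, so a dim row cannot be told from one without signal.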

Other observations

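Cxcl9, Cxcl10 and Cxcl11, the interferon-induced ligands of Cxcr3, were low in the same 3 NHR arrays as Cx3cr1; they were chosen after their values were seen. Cxcl11 measured 7.44, 7.67 and 7.57 in NHR female 3, NHR female 4 and NHR male 4, against 7.81 to 8.78 in the other 5 NHR arrays. Cxcl9 measured 7.21, 7.38 and 6.61 there, against 7.43 to 7.72, and Cxcl10 6.34, 6.40 and 6.17, against 6.45 to 6.67. Those 3 arrays were set apart over all rows, these genes included, so the low values of these genes in them were not tested. Without these arrays the limma strain differences were -0.18 for Cxcl11 (adjusted p = 0.424), -0.22 for Cxcl9 (adjusted p = 0.078) and -0.18 for Cxcl10 (adjusted p = 0.0624). None passed. Leaving out the lowest NHR values itself lowers the difference, so these p-values are no support for a strain difference.

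The spread within groups was largest for Cxcl11 (pooled SD 0.37), Ccl2 (0.33), Cxcl9 (0.28), Ccr1 (0.26) and Cx3cr1 (0.25). It was wider in NHR than in HHR for 33 of the 50 genes (66%), and for 70.8% of all rows.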
